A study of Mus musculus with 4 samples.

Results

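The genes described here are those of the T cell receptor and of the signalling steps closest to it: 34 of the 50600 genes counted. They were taken by name, and all 34 were found in the gene tables. The list holds 32 genes of the receptor and its signalling and 2 genes that lie on the strand opposite a member, Gm48719 opposite Cd3e and Pou2f1 opposite Cd247. Total RNA-seq had been run on primary T helper 2 (Th2) cells of mouse strain C57BL/6NJ, in 4 libraries that are biological replicates 1 to 4 of 1 group. The labels state no allele and no treatment, give the sex as not collected and the age as unknown, and tie all 4 biosamples to 1 donor identifier. Headers of the count tables place the cells at 48 hours in a time course of Th1 and Th2 cells, and the labels link a protocol for differentiation from CD4 T cells in culture. With 1 group there was no condition to compare, so the genes are described by level, by their spread between replicates and against the genes on the other strand. Since nothing in the labels says that the cultures came from separate animals, the spread and every p-value below are those between these libraries and may be technical.

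The T cell receptor of a helper T cell is an alpha and beta chain pair that binds peptide on MHC class II but has no signalling tail of its own. The signal leaves through the CD3 gamma, delta and epsilon chains and the zeta chain (Cd247), whose immunoreceptor tyrosine-based activation motifs (ITAMs) are phosphorylated by Lck and then bound by Zap70. Zap70 phosphorylates the adaptors Lat and SLP-76 (Lcp2), on which Plcg1, Vav1 and other enzymes assemble, and from there calcium, Ras and protein kinase C theta lead to NFAT, AP-1 and NF-kB. In Th2 cells this pathway is the trigger for interleukin-4 and interleukin-13 production.

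Read pairs counted to genes were few, 1785970 to 2271993 per library. There 3 counts stood for 1.32 to 1.68 CPM, the count scaled to a common library size. The 34 genes held 5420, 4797, 4810 and 3786 read pairs in replicates 1 to 4, or 0.224% ± 0.0115 of a library (SD, n = 4). Levels per length are given as TPM, a length-corrected share of the library, computed from the count and the exon length of each gene. Read pairs were counted by strand, with featureCounts strand setting 1. Which strand the library kit marks is not given in the sources used here, so each value below is the level of read pairs assigned to that gene's strand under that setting, and how far it measures the gene's own transcript was not tested. Genes that share no exon base with the other strand held 7.53, 6.88, 5.48 and 6.67% of the counts in replicates 1 to 4. The genes that do share some, 16.2% of the 50600, held 92.5, 93.1, 94.5 and 93.3%. The cause of this was not tested. In replicate 4, CT010467.1 and Gm42418 held 15.9% of the counts, against 3.25 to 5.02% in the others. All 6 Th2 markers looked at (Cd4, Gata3, Il4, Il13, Ptgdr2, Stat6) were above 3 counts in every library. Ptgdr2, Gata3 and Stat6 share 1031, 155 and 40 bp with the other strand, and the 3 without overlap (Cd4, Il4 and Il13) summed to 136, 103, 101 and 110 counts. Of 6 B cell markers 5 were at 0 in all libraries and Cd79a had 14, 8, 4 and 7 counts. All 3 NK cell markers were at 0, the 2 CD8 genes summed to 2 to 4 counts per library, and the 2 gamma delta T cell genes measured summed to 0 to 3. Of 6 myeloid markers Csf1r had 1066 to 1457 counts and shares 871 bp with Hmgxb3 on the other strand (4 to 16 counts), while the other 5 summed to 0 to 4.

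Coding sequence of 3 members is shown first, because in them a member and a much more heavily counted gene lie on the same bases in opposite directions. They are given on the member's strand from GENCODE vM21 transcripts on build mm10, 5′ to 3′, with the bases that are exonic on both strands in capitals. The Cd3e stretch is the coding part of its last exon (chr9:44999534-44999587, minus strand, 54 bases), and its 30 shared bases hold the second tyrosine codon of the ITAM. The Ptpn6 stretch (chr6:124732300-124732494, minus strand, 195 bases, all shared) encodes part of the N-terminal SH2 domain. The Plcg1 stretch (chr2:160751784-160751885, plus strand, 102 bases) is shared with 2 genes at once.
Cd3e, opposite Gm48719: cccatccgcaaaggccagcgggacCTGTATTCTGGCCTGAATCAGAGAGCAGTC
Ptpn6, opposite Gm20531: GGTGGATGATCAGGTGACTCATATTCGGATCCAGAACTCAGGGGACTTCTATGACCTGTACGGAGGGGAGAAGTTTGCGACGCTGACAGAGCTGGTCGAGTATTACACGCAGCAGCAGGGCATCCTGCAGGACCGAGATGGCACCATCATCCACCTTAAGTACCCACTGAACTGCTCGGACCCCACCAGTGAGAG
Plcg1, opposite Zhx3 and Gm27206: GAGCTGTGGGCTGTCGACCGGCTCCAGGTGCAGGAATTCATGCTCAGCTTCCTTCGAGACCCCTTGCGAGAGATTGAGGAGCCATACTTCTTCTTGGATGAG

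Most of the genes were detected, at low counts. At least 1 TPM was reached in all 4 libraries by 26 of the 34, against 13.3% of all genes and 21.8% of protein-coding genes. More than 3 counts in every library were found for 33 of the 34, against 26.5% of protein-coding genes; the exception was Bcl10, with 3 in replicate 4. The antigen receptor constant genes carry their own gene type and are not in those protein-coding backgrounds. The median of the mean levels was 4.87 TPM over the 32 genes without the opposite pair, against 0.115 TPM over all protein-coding genes and 5.68 TPM over the protein-coding genes that reached 1 TPM in every library. In bulk RNA, fewer cells expressing a gene and less RNA per cell cannot be told apart. Under the strand setting used, how far a low count measures the gene's own transcript was not tested. Counting error was large: 22 of the 34 averaged fewer than 30 counts and 4 fewer than 10.

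**Figure D1:**
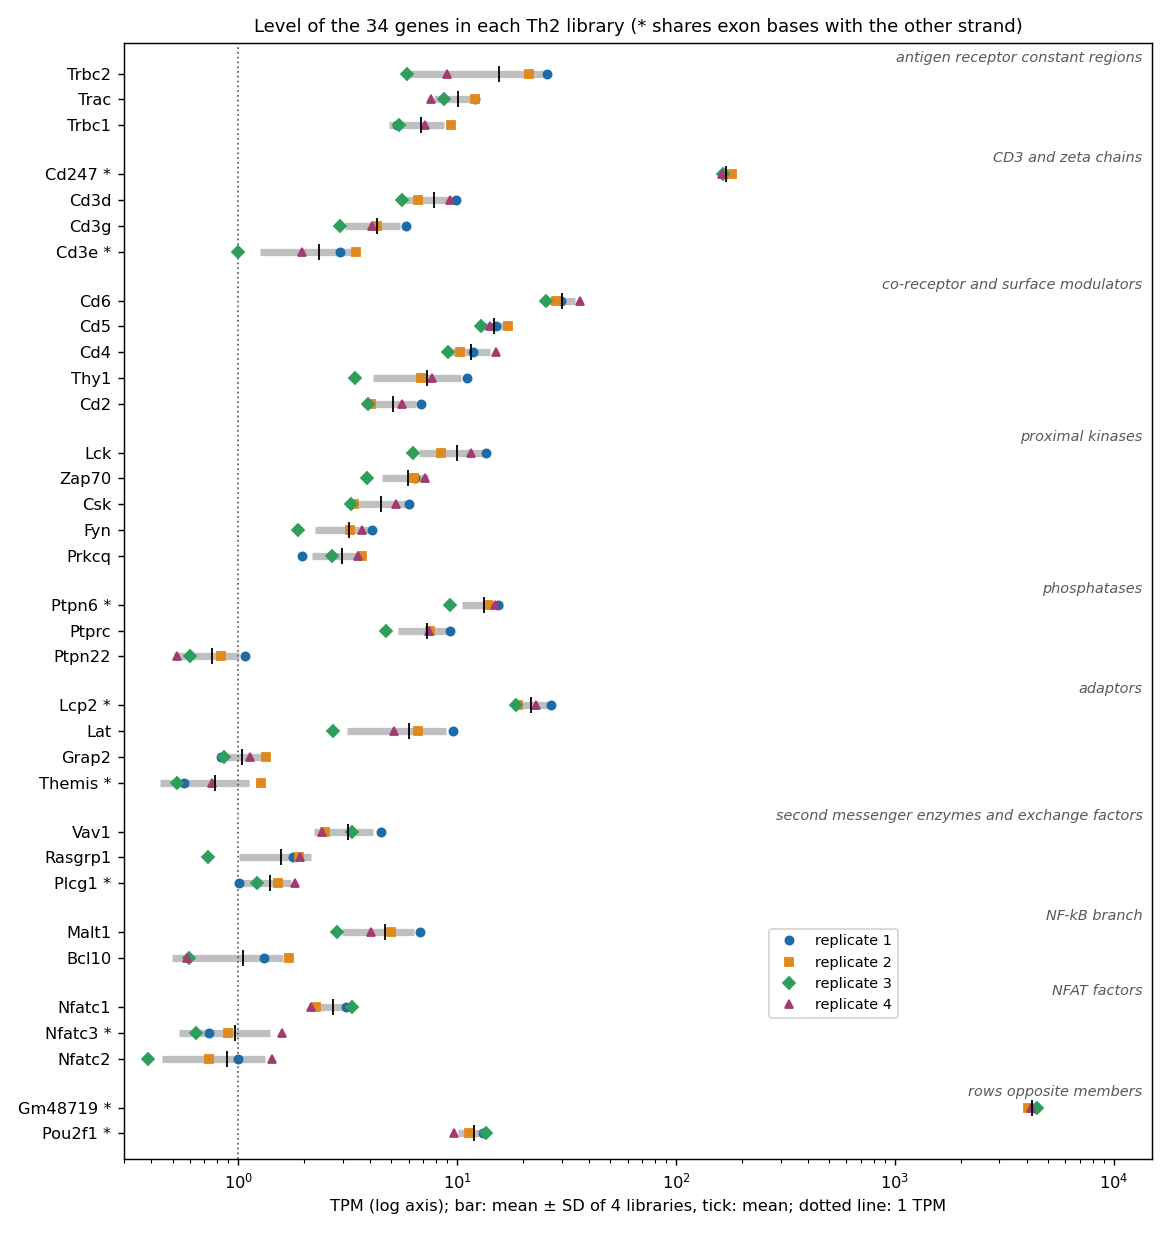
Level of each of the 34 genes in TPM (log axis) in each library, grouped by role; the points are replicates 1 to 4, the tick is the mean, the grey bar mean ± SD, and an asterisk marks genes with exon bases shared with the other strand. Cd247 at 168 TPM and Gm48719 at 4235 TPM stand to the right of the other genes, whose means run from 0.758 (Ptpn22) to 30.02 TPM (Cd6).

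The constant regions of the receptor chains were detected in every library. Trac, the alpha chain constant region, had 17, 16, 12 and 8 counts in replicates 1 to 4 (10.1 ± 2.28 TPM). Trbc1, a beta chain constant region, had 6, 10, 6 and 6 counts (6.81 ± 1.91 TPM). Its near-identical neighbour Trbc2 had 27, 21, 6 and 7 counts, which is 25.8, 21.4, 5.89 and 8.98 TPM (15.5 ± 9.57). Trbc2 was higher in replicates 1 and 2 than in replicates 3 and 4, a division read from these same values. Because Trbc1 and Trbc2 are copies of each other, reads that fit both may have been lost or divided, and their split is uncertain. Trac was lower than the summed beta constant regions in 4 of 4 libraries, by a log2 ratio (pseudocount of 1 TPM) of -0.98 ± 0.45. With 4 libraries the exact sign-flip test cannot go below a two-sided p of 0.13, and that was the value here; adjusted over the 15 ratios computed between genes it was 0.134.

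The 4 signalling chains of the complex differed widely in level. Cd3d, Cd3g and Cd3e lie side by side on chromosome 9. Cd3g (44969572 to 44980431, minus strand) and Cd3d (44981786 to 44987339, plus strand) start 1354 bp apart and point away from each other, and Cd3e (44998740 to 45009627, minus strand) ends 11400 bp beyond the end of Cd3d. Cd3d, the delta chain, had 27, 17, 15 and 19 counts (7.83 ± 2.05 TPM), and Cd3g, the gamma chain, had 29, 20, 14 and 15 (4.29 ± 1.21 TPM). Counts of Cd3e, the epsilon chain, were 18, 20, 6 and 9 (2.33 ± 1.08 TPM). The neighbours thus had counts of the same order, and the levels per length followed their exon lengths of 1815, 3269 and 4080 bp. On the log2(TPM + 1) scale Cd3d exceeded Cd3g by 0.74 ± 0.21 and Cd3e by 1.44 ± 0.47, in 4 of 4 libraries each (exact two-sided p = 0.13, adjusted 0.134). Without division by length (TMM-normalized CPM) the first of these differences was 0.02 and the second 0.59.

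Cd247, the zeta chain, stood apart from the CD3 chains. It had 1360, 1364, 1278 and 972 counts, which is 169, 180, 163 and 162 TPM (168 ± 8.39), with a coefficient of variation of 4.98%, where counting error alone would give 2.84%. For Cd3d, Cd3g and Cd3e, at far fewer counts, it was 26.1, 28.3 and 46.4%, where counting error alone would give 22.6, 22.6 and 27.5%. The highest library lay 1.11-fold above the lowest. Its log2 ratio over Cd3g was 5.03 ± 0.31, positive in 4 of 4 libraries (exact two-sided p = 0.13, adjusted 0.134). Cd247 alone held 49.7, 55.4, 60.3 and 50.8% of the counts of the 32 genes. It is also the member with the longest stretch of exon shared with the other strand, and whether its level rests on that stretch was not tested, since counts per exon were not used.

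**Figure D2:**
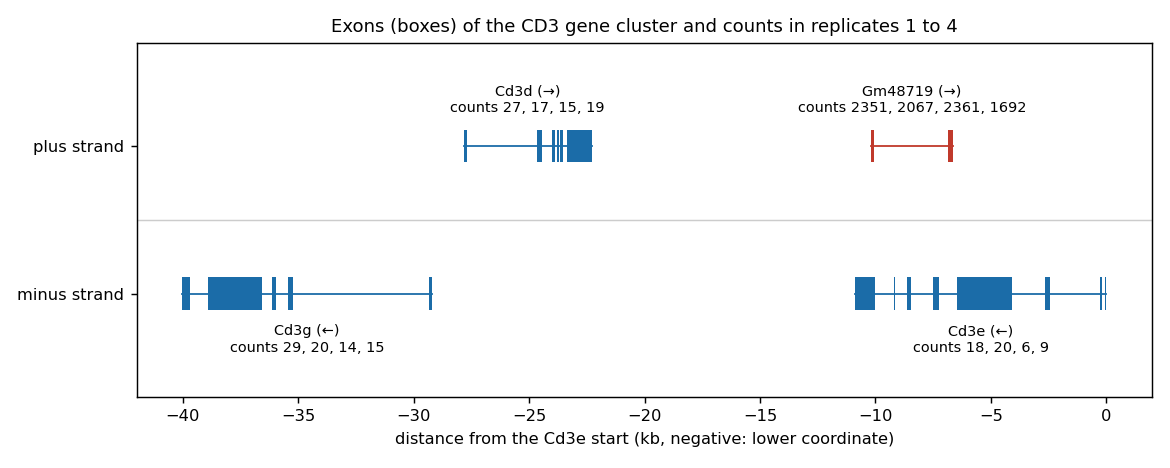
Exons (boxes) of Cd3g, Cd3d, Cd3e and Gm48719 on both strands, with the distance from the Cd3e start in kb on the horizontal axis and the counts of replicates 1 to 4 under each name. The 3 CD3 genes have 6 to 29 counts per library and Gm48719, which overlaps the last exon of Cd3e and lies within the gene, has 1692 to 2361.

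Gm48719 and Pou2f1 are the 2 opposite genes of the list. Gm48719 is annotated as an antisense RNA of 361 bp (44999429 to 45002985 on chromosome 9, plus strand), of which 135 bp (37.4%) lie on Cd3e exon bases. It had 2351, 2067, 2361 and 1692 counts, or 4235 ± 179 TPM, rank 31 among all genes by mean TPM. The libraries ranged from 4031 to 4445 TPM. Its counts were 103 to 394 times those of Cd3e. The share of the pair on Cd3e was 0.760% in replicate 1 (95% Wilson interval 0.481 to 1.20), 0.958% (0.621 to 1.48) in replicate 2, 0.253% (0.116 to 0.552) in replicate 3 and 0.529% (0.279 to 1.00) in replicate 4. These intervals cover counting error only. Pou2f1, which encodes the octamer-binding factor Oct1, runs against Cd247 on chromosome 1 (165865154 to 166002678, minus strand). It had 330, 267, 331 and 180 counts (11.9 ± 1.80 TPM), and here the member was the higher gene: Cd247 had 3.86 to 5.40 times the counts, and 12.0 to 16.8 times per kb. The shared 3007 bp are 56.4% of the Cd247 exon bases and 18.1% of those of Pou2f1.

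Sharing of exon bases with the other strand was found for 7 of the 32 genes, against 22.1% of protein-coding genes, and gave 8 pairs. In 7 of the 8 pairs the gene on the other strand had more counts than the member in all 4 libraries. By counts the same held for 60.1% of 4023 pairs of a protein-coding gene and any gene opposite it. In those pairs the higher count passed 3 in every library, and a pair of protein-coding genes entered in both directions. Per kb the opposite gene was also the higher in 7 of the 8 pairs, for which no background was computed. In 4 of the pairs the opposite gene is not protein-coding, and it was the higher in all 4, against 79.1% of 1673 such pairs. Of the 8 pairs 5 share coding bases of the member. The cause of these differences was not tested.

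The pairs span the pathway from phosphatase to transcription factor. Ptpn6 (SHP-1, a phosphatase that damps receptor signalling) had 65, 55, 38 and 47 counts, while Gm20531, an antisense RNA on the 195 bases printed above, had 3654, 3553, 3929 and 2775 (1830 ± 81.0 TPM). That is 56.2 to 103 times the counts of Ptpn6. Themis, an adaptor of thymocyte selection, had 10, 21, 9 and 10 counts. The pseudogene 4930519F09Rik opposite its 3′ end over 153 bp had 552, 557, 566 and 442, 26.5 to 62.9 times as many. Plcg1, the phospholipase that makes the second messengers of calcium and protein kinase C, had 12, 17, 14 and 16 counts and faces 2 genes. Zhx3, a zinc finger and homeobox gene sharing 379 bp, had 500, 515, 576 and 450 counts, and the antisense RNA Gm27206, sharing 248 bp, had 317, 313, 341 and 256. Zhx3 and Gm27206 also share exon bases with each other on 1 strand, so their split is uncertain.

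Nfatc3 and Lcp2 completed the pairs. Nfatc3, a calcium-driven transcription factor, had 13, 15, 11 and 21 counts, and Esrp2, a splicing factor gene of epithelial cells that overlaps 219 bp of it, had 329, 298, 310 and 234. The share of that pair on Nfatc3 was 3.80, 4.79, 3.43 and 8.24% in replicates 1 to 4. Lcp2 (SLP-76) was closest to its opposite gene: it had 180, 120, 122 and 115 counts against 294, 276, 276 and 172 for 4930469K13Rik, with which it shares 88 bp. Replicate by replicate that is 1.50 to 2.30 times the counts of Lcp2.

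**Figure D3:**
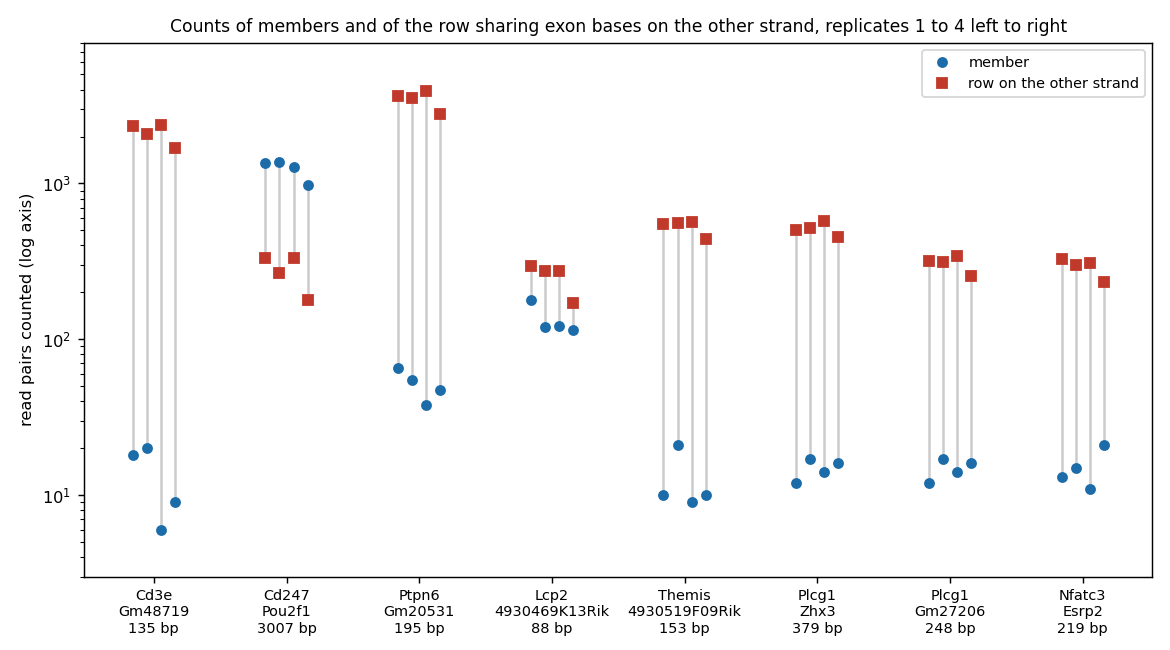
Counts (log axis) of each member (circles) and of the gene sharing exon bases on the other strand (squares), joined by a line, with replicates 1 to 4 from left to right and the shared length under each pair. The square lies above the circle in every library of 7 pairs, and the circle above the square for Cd247 and Pou2f1.

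The co-receptor and the surface genes that tune the receptor were all at 1 TPM or more in every library, and none of the 5 shares exon bases with the other strand. Cd6, a scavenger receptor family member tied to the complex, was the highest of the 25 members without such overlap, with 153, 137, 128 and 140 counts (30.02 ± 4.65 TPM). Cd5, a related negative regulator, had 47, 50, 39 and 33 (14.7 ± 1.76 TPM). Cd4, the MHC class II co-receptor, had 72, 59, 54 and 68 counts (11.5 ± 2.54 TPM), while Cd8a, its class I counterpart, had 1, 0, 0 and 0. Cd2, an adhesion receptor, had 18, 10, 10 and 11 counts (5.10 ± 1.39 TPM). Thy1, a GPI-anchored surface glycoprotein, had 50, 29, 15 and 26 (7.24 ± 3.13 TPM). Thy1 was high in replicate 1 and low in replicate 3, 11.0 against 3.40 TPM. Cd5 and Cd6, neighbours on chromosome 19, were among the less variable of the surface genes, with coefficients of variation of 11.9 and 15.5%.

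All 5 proximal kinases reached 1 TPM in every library. Lck, the Src-family kinase that starts the cascade, had 60, 35, 27 and 38 counts (9.93 ± 3.23 TPM), and Fyn, the other Src-family kinase of T cells, had 27, 20, 12 and 18 (3.21 ± 0.962 TPM). The log2 ratio of Lck over Fyn was 1.36 ± 0.15. Counting error alone would give coefficients of variation of 15.8% for Lck and 22.8% for Fyn. At such counts the small spread of their ratio over 4 libraries does not show that it is steady. Zap70, which docks on phosphorylated ITAMs, had 29, 27, 17 and 24 counts (5.93 ± 1.43 TPM). Csk, which switches Lck off, had 34, 18, 18 and 22 (4.48 ± 1.36 TPM). Prkcq, protein kinase C theta, had 21, 37, 28 and 28 (2.96 ± 0.795 TPM) and was the only one of the 5 kinases lowest in replicate 1.

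Among the phosphatases Ptprc (CD45, which removes the inhibitory phosphate of Lck) had 257, 195, 127 and 154 counts. Summed over the libraries these 733 counts were the most of any member without overlap, ahead of Cd6 with 558. Over its long exons that was 9.27, 7.50, 4.71 and 7.46 TPM (7.24 ± 1.88). Replicate 1 was its highest library and replicate 3 its lowest. Ptpn6 was higher per length, at 13.3 ± 2.80 TPM. Ptpn22, which acts with Csk, had 11, 8, 6 and 4 counts (0.758 ± 0.247 TPM), the lowest mean level of the 34 genes.

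Of the 4 adaptors Lcp2 was highest (21.8 ± 3.80 TPM). Lat, the membrane scaffold, had 40, 26, 11 and 16 counts, or 9.55, 6.62, 2.70 and 5.13 TPM (6.00 ± 2.86). Replicate 1 stood 3.54-fold above replicate 3 for Lat. Grap2 (Gads), which links Lat to SLP-76, had 4, 6, 4 and 4 counts (1.04 ± 0.237 TPM), and Themis stood at 0.779 ± 0.341 TPM. Neither Grap2 nor Themis reached 1 TPM in all libraries.

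The enzymes and exchange factors downstream were lower. Vav1, a guanine nucleotide exchange factor, had 25, 13, 18 and 10 counts (3.17 ± 0.965 TPM). Rasgrp1, which activates Ras in response to diacylglycerol, had 15, 15, 6 and 12 (1.57 ± 0.565 TPM) and fell below 1 TPM in replicate 3. Plcg1 was at 1.39 ± 0.351 TPM. Malt1, a paracaspase on the way to NF-kB, had 52, 36, 21 and 23 counts (4.65 ± 1.67 TPM). Its partner Bcl10 had 9, 11, 4 and 3 (1.04 ± 0.550 TPM). Of the NFAT factors Nfatc1 was the highest, with 35, 24, 36 and 18 counts (2.71 ± 0.579 TPM). Nfatc2 had 16, 11, 6 and 17 counts (0.886 ± 0.439 TPM) and Nfatc3 was at 0.965 ± 0.430 TPM. Nfatc2 lay below Nfatc1 in 4 of 4 libraries (log2 ratio -0.99 ± 0.51), whereas the ratio of Nfatc3 over Nfatc2 was 0.07 ± 0.19 with both signs among the libraries (exact two-sided p = 0.5, adjusted 0.5).

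For 8 members (Cd4, Zap70, Lck, Lcp2, Lat, Plcg1, Prkcq and Vav1) the level was set against that of a relative used in B cells or other lineages. Of these log2(TPM + 1) ratios 7 were positive in all libraries and 1 was negative in all. The kinase Syk, the Zap70 relative of B cells, was at 0 in all 4 libraries (log2 ratio of Zap70 over Syk 2.77 ± 0.33). The B cell Src-family kinase Lyn was at 0 as well (Lck over Lyn 3.40 ± 0.44), as was Blnk, the SLP-76 counterpart of B cells (Lcp2 over Blnk 4.49 ± 0.24). A count of 0 allows up to 3 counts per library here. Plcg2, the phospholipase of B cells, had 0, 1, 0 and 0 counts (Plcg1 over Plcg2 1.19 ± 0.21), Prkcb 5, 4, 1 and 3 (Prkcq over Prkcb 1.58 ± 0.36) and Vav2 8, 6, 4 and 4 (Vav1 over Vav2 1.39 ± 0.29). Cd4 exceeded Cd8a by 3.57 ± 0.29. Lcp2 and Plcg1 share exon bases with more heavily counted genes on the other strand, and Lyn shares 248 bp with Gm26857 (1 to 9 counts). What these overlaps do to the ratios was not tested. For genes at or near 0 the size of the ratio depends on the pseudocount, and with 0.1 in place of 1 Zap70 over Syk was 5.88.

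The exception was the Lat family. Lat2 (NTAL), the adaptor that serves B and mast cells, had 49, 44, 39 and 29 counts (11.0 ± 1.25 TPM) and lay above Lat in 4 of 4 libraries, with a log2 ratio of Lat over Lat2 of -0.87 ± 0.52. Lat2 shares 952 of its 2621 exon bases with Rfc2 on the other strand, which had 46, 51, 38 and 19 counts, and what part of the Lat2 counts belongs to that overlap was not tested. Each of these 8 ratios had an exact two-sided p of 0.13, adjusted 0.134, so none passed 0.05 in this design.

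Most members were low in replicate 3, as were most genes without overlap, and the genes opposite members were not. The 25 members without overlap summed to 476, 403, 290 and 405 CPM in replicates 1 to 4, and all genes without overlap to 75303, 68816, 54815 and 66699 CPM. Replicate 3 was lowest in both. Of the 24 members without overlap that passed 3 counts in every library, 17 were lowest in replicate 3, against 57.8% of the 3491 genes of that kind, and 13 were highest in replicate 1, against 39.8%. The B cell marker Cd79a was likewise highest in replicate 1 and lowest in replicate 3, while the other 5 B cell markers were at 0. So were the Th2 markers Gata3, Il13 and Stat6 highest in replicate 1 and lowest in replicate 3, but not Cd4, Il4 and Ptgdr2. The part of Cd79a in the pattern was not tested. Of the 25 members without overlap, those not lowest in replicate 3 were Trac, Ptpn22, Vav1, Bcl10 and Nfatc1, lowest in replicate 4, and Trbc1, Prkcq and Grap2, lowest in replicate 1. Relative to each gene's own mean, the median member without overlap was at log2 0.33, 0.05, -0.48 and 0.09 in replicates 1 to 4. The 7 members with overlap had medians of 0.00, 0.10, -0.53 and 0.07. The 8 opposite genes had medians of -0.02, -0.01, 0.07 and -0.03 and summed to 3665, 3715, 3942 and 3472 CPM, highest in replicate 3. All genes with overlap also held their largest share of the counts in replicate 3 (94.5%), so neither pattern is particular to the pathway.

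**Figure D4:**
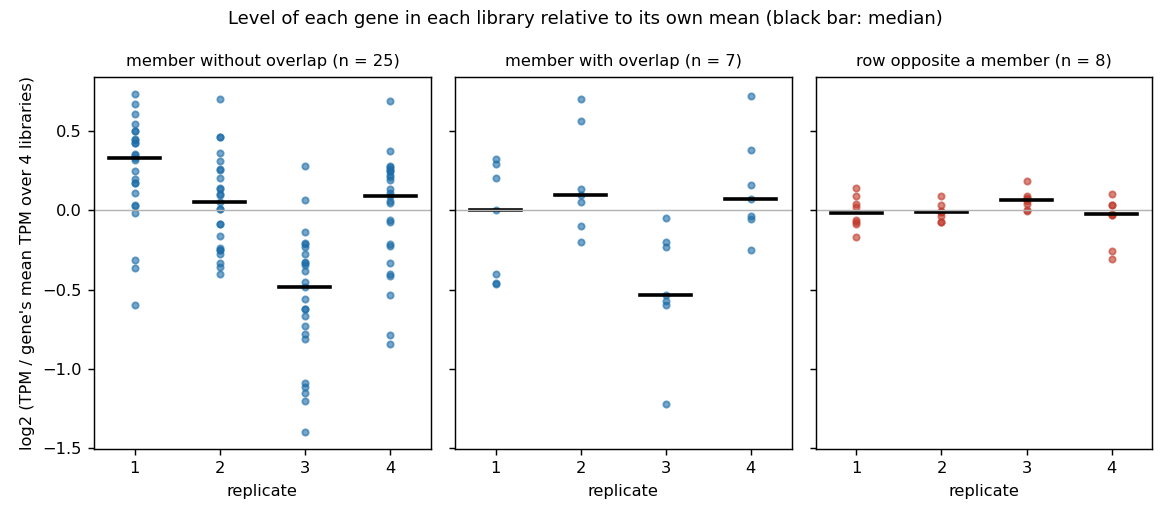
Level of each gene in each library as log2 of TPM over the gene's own mean of 4 libraries, for the 25 members without overlap, the 7 members with overlap and the 8 genes opposite members; the bar is the median. Replicate 3 has the lowest median of both member groups (-0.48 and -0.53), while the medians of the opposite genes stay between -0.03 and 0.07.

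No single member was called as varying between replicates. The edgeR goodness-of-fit test, which asks whether a gene's counts scatter more than genes of like abundance, called 0 of the 23 members with enough counts to be tested at an adjusted p under 0.05, against 0.454% of 5064 genes. At an unadjusted p under 0.05 it passed 3 of the 23, against 5.13% of all genes tested. These were Ptprc (unadjusted p = 0.0175, edgeR adjusted p = 0.657), Lat (0.0254, adjusted 0.772) and Thy1 (0.0313, adjusted 0.834). All 3 were highest in replicate 1 and lowest in replicate 3. That count rests on those libraries: it was 0 without replicate 1 and 0 without replicate 3, and 5 with a common dispersion. Ptprc, Lat and Thy1 are 3 of the 16 tested members without overlap. Of protein-coding genes, 166 of 1658 tested without overlap and 60 of 1997 with overlap had an unadjusted p under 0.05. The share of all genes is thus a low background for members without overlap. Across the 34 genes the median coefficient of variation was 27.7%, where counting error alone would give 21.7%, and 27 of the 34 lay above their own counting error. No share over all genes was computed for that count, so it is not shown to be particular to the members. The 25 members without overlap had a median of 28.3%. Protein-coding genes without overlap that reached 1 TPM in every library had one of 26.7%. The 8 opposite genes had a median of 4.40%, at a median of 409 counts against 19.5 for the 32 members.

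Further genes of the pathway, its later kinases, adaptors, GTPases, transcription factors and negative regulators, were read from a list of 91. Their median was 1.46 TPM, beside 4.87 TPM for the 32 members, a difference that was not tested. Of the 91, 43 were at 1 TPM or more in every library, against 21.8% of protein-coding genes. The edgeR test called 0 of the 31 tested as varying (adjusted p under 0.05), against 0.454% of 5064 genes. At an unadjusted p under 0.05 it passed 2 of the 31, Sla and Ptpn7, a share near the 5.13% of all genes tested. By class, 6 of 17 kinases, 8 of 18 adaptors, 11 of 21 GTPase, lipid and calcium genes, 8 of 18 calcineurin, NFAT, NF-kB and AP-1 genes and 10 of 17 negative regulators reached 1 TPM throughout. Lime1 and Nfatc4 had no count, although Lime1 shares 2132 of its 2304 exon bases with Zgpat on the same strand (302 to 443 counts), so its own count is uncertain.

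The highest level described among these genes was that of a gene with exon bases shared with the other strand. Sla2, an adaptor that damps receptor signalling, was at 837 ± 65.8 TPM (4111, 3890, 3851 and 2588 counts) and shares 731 bp with Rab5if, which had 108 to 155 counts. Ikbkg (NEMO), of the IkB kinase complex, was at 59.5 ± 1.32 TPM and lies opposite G6pdx over 418 bp. Without such overlap the highest were Calm2, a calmodulin, at 25.1 ± 6.09 TPM, Nfkbia, the NF-kB inhibitor, at 16.2 ± 2.76, and Dusp2, a MAP kinase phosphatase, at 15.9 ± 2.19. Among the top genes of their classes were also Nfkb2 at 18.2 ± 1.59 TPM, sharing 4 bp with Psd, the T cell receptor-associated adaptor Trat1 at 7.91 ± 3.67, the GTPase Rac2 at 6.04 ± 1.85 and the kinase Akt1 at 6.02 ± 2.22. Cdc42 (4.78 ± 2.14 TPM), Ptpn7 (5.75 ± 1.84) and Ptpn2 (4.53 ± 1.92) were at the level of Zap70 and Csk.

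**Figure D5:**
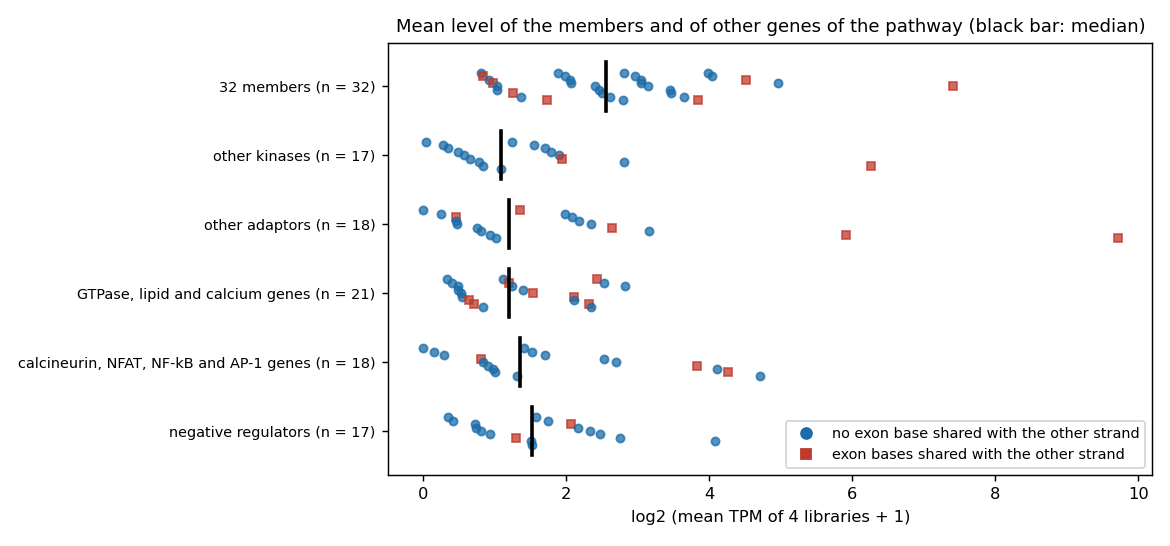
Mean level over 4 libraries, as log2 (TPM + 1), of the 32 members and of the 91 other pathway genes in their 5 classes; squares mark genes that share exon bases with the other strand and the bar is the median of each row. The squares of Sla2 and Ikbkg lie beyond all other adaptors of the row.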

How the data were processed

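RNA of Th2 cells was measured in 4 libraries of 1 group, taken from the labels. The deposited tables hold raw counts of read pairs per gene, summed over exons by the authors with featureCounts 1.4.6-p4 (strand setting 1, both ends mapped) on mm10 with GENCODE vM13, per the file headers. The assay is labelled total RNA, although a polyA+ library protocol is linked. The exon length (another deposited column, in bp) was used for TPM. STAR is named in the headers' file names, its version is not given in the sources used here. GENCODE vM21 gave symbols (50376 of 50600 genes) and sequences.

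Depth was 1785970 to 2271993 counts per library, and 3 counts was taken as the floor. Wilson intervals (95%) and floors reflect counting error alone, because duplicate molecules could not be recognised. Genes on opposite strands were paired where they had 1 or more exon bases in common. For the spread between replicates, edgeR (version 4.0.16, with limma 3.58.1) fitted each gene a negative binomial model with a mean only, using TMM factors, trended dispersion and filterByExpr, and its goodness of fit was Benjamini-Hochberg adjusted over 5064 genes at 0.05. Ratios were differences of log2(TPM + 1), tested by exact sign flips. R 4.3.3 ran these and DESeq2 1.42.0 (size factors only); Matplotlib 3.10.9, SciPy 1.17.1, numpy 2.4.6, pandas 2.3.3 and Python 3.11.15 were also used.

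The members, lists, ratios and tests were chosen with earlier results of these data known. Named genes are all members, every gene opposite one, the genes of the ratios, the 3 highest genes per pathway class, and markers above 3 counts in every library; Sla, Lime1, Nfatc4 and the other markers were named after their values were seen. Alternatives were a pseudocount of 0.1, FPKM, TMM-normalized CPM, other thresholds, a common dispersion, removal of CT010467.1 and Gm42418, and leaving out each replicate. Signal tracks were not used here. Some values are not reported here.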

Additional observations from a re-analysis of the deposited data

Results flagged for a closer look

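Of 57 values examined in 4 libraries each, 3 (5.26%) had 1 library far from the other 3, by Dixon's test at the 95% level. Chance alone marks about 1 in 20 such groups.

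Rasgrp1, the Ras exchange factor, was at 0.728 TPM in replicate 3 (6 counts) and at 1.77, 1.89 and 1.90 TPM in replicates 1, 2 and 4. The gene 4930469K13Rik, opposite Lcp2, was at 219 TPM in replicate 4 and at 278, 278 and 269 TPM in replicates 1 to 3. The log2 ratio of Prkcq over Prkcb was 1.05 in replicate 1 and 1.77, 1.76 and 1.74 in replicates 2 to 4, from 21 counts of Prkcq and 5 of Prkcb in replicate 1.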

How the results depend on the processing

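A count was taken as moved past 1.5 times its main value, and a share past 1 SD between replicates. A ratio between genes was judged only by its sign and its side of the test's threshold, which no ratio can pass with 4 libraries. So judged, 4 of the values recomputed for the comparisons moved and 156 did not. Kept apart from these were the log2 count ratios of the 8 pairs on opposite strands. All 8 changed in size but not in sign when taken per kb of exon. At a threshold of 2 TPM, 26 of the other pathway genes were detected in place of 43. The share of library counts on the 34 members was 0.242% without CT010467.1 and Gm42418 and 0.110% for the 32 members without the opposite pair, the latter chosen after seeing the data; leaving out each replicate gave 0.219 to 0.228%. The share of the 34 members' counts in those with overlap was 82.5%, where all genes with overlap held 93.4% of all counts. Gm48719 and Pou2f1 raise this share by the way they were chosen, as genes opposite a member. Without them, members with overlap held 1484.5 of 2308.5 counts (means of 4 libraries). The share of the 34 was 81.1 to 83.3% when leaving out each replicate. It was 32.9% when an overlap had to reach 200 bp, which leaves out Cd3e, Gm48719, Ptpn6, Lcp2 and Themis. No ratio reversed, but sizes changed: Cd3d over Cd3g was 0.02 on TMM-normalized CPM in place of 0.74, and with a pseudocount of 0.1 Zap70 over Syk was 5.88 in place of 2.77 and Plcg1 over Plcg2 3.52 in place of 1.19 (log2).

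No member was called as varying under any of 9 settings; the smallest edgeR adjusted p of a member was 0.197 (Thy1, common dispersion). The number of all genes called was 23, and 15 without the count filter, 32 with a common dispersion, 12 without replicate 3 and 7 without replicate 4. No paired analysis was possible because there was only 1 group. Low counts limit the rest: 22 of the 34 genes averaged fewer than 30 counts, and a gene at 0 may have up to 3.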
